A study of Mus musculus with 23 samples.

Results

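The respiratory chain is the set of protein complexes in the inner mitochondrial membrane that passes electrons to oxygen and makes ATP. Its genes were followed here in CD103+ type 1 conventional dendritic cells (cDC1) sorted from mouse melanomas. Members were the rows of the count table named as subunits of complexes I to V, taken by symbol. They were 97 of 13572 gene rows, 13 from the mitochondrial genome and 84 from the nuclear genome. Of the nuclear rows, 76 are annotated as protein-coding, 7 as processed pseudogenes and 1, Ndufb1-ps, as a long noncoding RNA. Complex I had 7 mitochondrial and 36 nuclear members, complex II 4 nuclear ones, complex III 1 and 8, complex IV 3 and 15 and complex V, the ATP synthase, 2 and 21. Ndufa4 was placed in complex IV, where its protein sits.

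All recipients were wild-type C57BL/6 mice bearing a subcutaneous BRAFV600E melanoma. In the control group the melanoma cells make prostaglandin E2 (PGE2). In the other group they lacked Ptgs1 and Ptgs2, both cyclooxygenase genes, and those tumours are called PGE2-deficient here. The deletion is in the injected cells alone, so the host's own cells keep both genes, and the level of PGE2 was not analysed here. Tumours were taken 6 days after injection, and viable leukocytes (CD45+) that were positive for MHC-II, CD11c and CD103 and negative for CD11b were sorted in pools of 10. Libraries were made with Smart-seq3, which reads transcripts along their whole length from few cells. Each group had 4 mice with up to 3 pools each, named technical replicates in the labels, giving 12 control and 11 PGE2-deficient pools. Each pool is a bulk sample, in which fewer cells of a type and less RNA per cell cannot be told apart.

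Complex I takes electrons from NADH and complex II, the succinate dehydrogenase of the Krebs cycle, takes them from succinate. Complex III passes them to cytochrome c, complex IV hands them to oxygen, and complex V uses the resulting proton gradient to make ATP. Mitochondrial DNA encodes the membrane core of complexes I, III, IV and V. Every subunit of complex II and all other subunits of the rest are nuclear and imported, so each mixed complex draws on both genomes. In dendritic cells, respiration and glycolysis are both known to support maturation and antigen presentation.

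Pools held 25571 to 98554 counts and mice 101017 to 230478 after summing. All 10 cDC1 markers were present, with 2581 to 4938 summed CPM in control mice and 5547 to 8177 in PGE2-deficient mice. Markers of other cells were unequal between groups. The 6 cDC2 markers summed to 220 counts in the control group against 62 in the other, the 8 macrophage markers to 257 against 16, the 6 pDC markers to 265 against 164 and the 8 T cell markers, with Cd4 at 0, to 11 against 58. The pDC sum joins opposite directions. Bst2 (68 against 131) and Pacsin1 (1 against 3) were higher in the PGE2-deficient group. Siglech (42 against 0), Ly6d (34 against 0), Tcf4 (113 against 29) and Ccr9 (7 against 1) were lower. The B cell marker Cd79b was at 0, the NK cell marker Klrb1c gave 3 counts against 1 and the melanoma genes Dct and Pmel 9 against 1. Other markers of these cells and those of neutrophils and fibroblasts were not analysed here. CPM values are scaled to each mouse's total over the tested genes, corrected by TMM factors, and a level per kb is that value divided by the median length of the gene's principal transcripts.

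Several mitochondrial genes have near-perfect copies in the nuclear genome, and for some of them the counts of this table lie mostly in the copy. On chromosome 1 (GRCm38, minus strand, 24611535 to 24616197) a block of unprocessed pseudogenes holds pieces of mt-Co1, mt-Co2, mt-Atp6, mt-Co3, mt-Nd3, mt-Nd4l and mt-Nd4. Gm28661 matches mt-Co2, subunit 2 of cytochrome c oxidase, at every aligned base, while Gm13341 on chromosome 2 is 95.9% identical. The first 90 bases of the gene and its copies show what a read can and cannot tell apart, with bases that differ from the mitochondrial gene in capitals (GENCODE M21 transcripts).
mt-Co2, chrM:7013-7102, plus strand: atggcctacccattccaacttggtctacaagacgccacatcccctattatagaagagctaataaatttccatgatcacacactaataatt
Gm28661, chr1:24615476-24615565, minus strand: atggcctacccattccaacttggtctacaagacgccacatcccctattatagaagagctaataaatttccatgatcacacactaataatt
Gm13341, chr2:22587873-22587962, minus strand: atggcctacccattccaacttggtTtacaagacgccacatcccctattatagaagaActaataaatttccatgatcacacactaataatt
The copy of mt-Nd3, subunit 3 of complex I, differs from the gene at 1 of its bases, which lies at the start.
mt-Nd3, chrM:9459-9490, plus strand: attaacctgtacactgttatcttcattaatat
Gm28438, chr1:24613088-24613119, minus strand: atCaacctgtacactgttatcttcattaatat

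The row of mt-Co3, subunit 3 of cytochrome c oxidase, held 145 counts over all mice, and its identical copy Gm28437 held 7154, the rank 9 row of the whole table. For mt-Atp6, the proton channel subunit of the ATP synthase, the row held 95 counts and Gm10925 held 5316. For mt-Co2 the row held 148 counts and Gm28661 held 4017. Where the sequences are identical, a read cannot be assigned to either row on its letters, so the rows of mt-Co2, mt-Co3 and mt-Atp6 cannot be read as levels of those transcripts alone. Identity did not fix where the counts lay: in the same block Gm10222, identical to mt-Nd4l, held 6 counts against 946 in the gene, and Gm28439, identical to 876 bases of mt-Nd4, held 2 against 1014.
mt-Co1, the catalytic subunit of complex IV, shares only a stretch with Gm29216 (99.8% identity over 483 bases) and kept 3548 counts against 1894 in that copy. A second copy of mt-Co1, Gm13340 on chromosome 2, is 97.6% identical over 1545 bases and held 547 counts. mt-Nd3 kept 1585 counts against 183 in Gm28438. The copy of mt-Nd2 on chromosome 2, Gm13339, held 21 counts against 1473. In all, 11 copy rows of mitochondrial genes held 19353 counts, more than the 14685 counts in the 13 genes themselves. For nuclear members, 31 copy rows held 1225 counts beside 23163 in the members, with Gm12338, identical to Cox7c over its length, highest at 292. Counts of genes with such copies are uncertain. The counts in the copy rows do not bound by how much, since the handling of reads that match several places is not given.

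**Figure D1:**
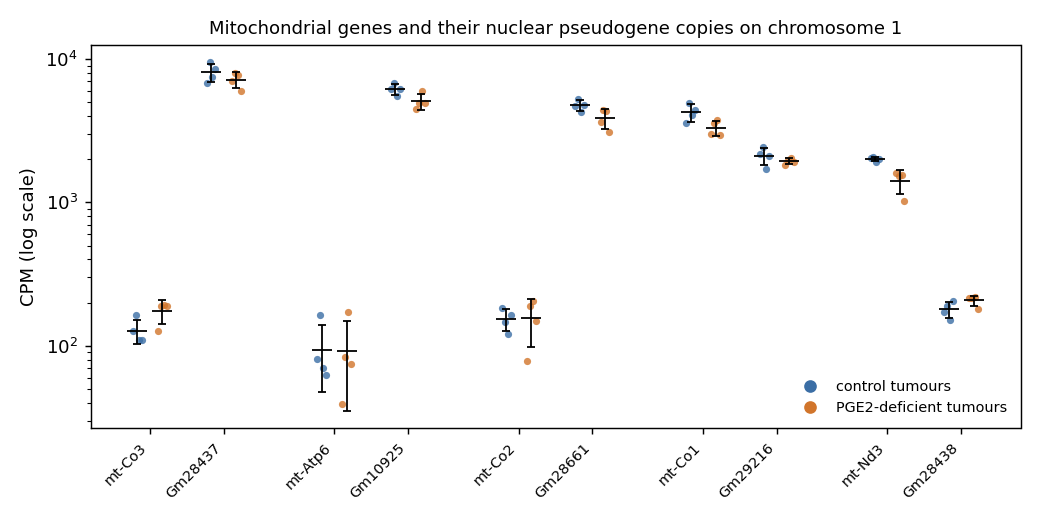
CPM per mouse (log axis) of 5 mitochondrial genes, each beside its pseudogene copy on chromosome 1; points are mice, horizontal marks the mean and bars the SD (n = 4 per group). mt-Co3, mt-Atp6 and mt-Co2 lie far below their copies, while mt-Co1 and mt-Nd3 lie above theirs in both groups.

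Per kb, several mitochondrial genes that hold most of their counts in their own row were among the most abundant members. mt-Nd3 stood at 4934 CPM per kb over all mice, mt-Nd4l at 3406, mt-Nd1 at 2858, mt-Co1 at 2445 and mt-Cytb, the cytochrome b of complex III, at 1876. At the lower end were mt-Nd4 at 774, mt-Nd6, the only one read from the other strand, at 647 and mt-Nd5 at 326. Dividing by length presumes that reads and not molecules were counted, which is not given. Undivided, mt-Co1 stood at 3777 CPM, mt-Nd1 at 2735, mt-Cytb at 2146, mt-Nd3 at 1717 and mt-Nd4l at 1011.5, another order. Neighbouring genes overlap by 43 bases (mt-Atp8 and mt-Atp6), 14 bases (mt-Nd5 and mt-Nd6) and 7 bases (mt-Nd4l and mt-Nd4), and use of strand in counting is not given in the sources used here.

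The comparison of both tumour groups asks how the melanoma's cyclooxygenases are reflected in the respiratory genes of the cDC1 in the tumour. With enough counts to test were 74 members, 12 mitochondrial and 62 nuclear. None was called higher and 1, mt-Nd2, was called lower with PGE2-deficient tumours (edgeR quasi-likelihood test, adjusted p under 0.05), where 2.7% of the 2076 tested genes were called higher and 2.26% lower. At an unadjusted p under 0.05 there were 2 members higher and 5 lower of 74, and 200 genes higher and 189 lower of all 2076. DESeq2 called 0 members in either direction, and 50 higher and 37 lower of all 2076 genes. The median log2 fold change was −0.34 over the 12 tested mitochondrial genes, 0.01 over the 62 nuclear ones and 0.01 over all tested genes. Without PGE2-deficient mouse 1 the mitochondrial median was −0.22. For 65 of the 74 members the 95% interval of the fold change lay within 2-fold in either direction, as it did for 1182 of all 2076 genes.

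mt-Nd2, a core membrane subunit of complex I (ENSMUSG00000064345, M:3914-4951), stood at 1702, 1979, 2098 and 1717 CPM in the 4 control mice and at 1199, 1222, 1526 and 1172 in the 4 PGE2-deficient mice. Every PGE2-deficient mouse was below every control mouse. The log2 fold change was −0.54 ± 0.15 (SE, n = 4 mice per group; adjusted p = 0.0416, edgeR). The call was close to the threshold. Leaving out control mouse 2, 3 or 4 or PGE2-deficient mouse 1, 2 or 4 gave adjusted p from 0.0545 to 0.129 (edgeR), at log2 fold changes from −0.59 to −0.49. It was called in 9 of 22 alternatives, whose adjusted p ran from 0.0175 to 0.978.

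mt-Nd3 stood at 2036, 2065, 1927 and 2023 CPM in control mice and at 1598, 1530, 1541 and 1015 in PGE2-deficient mice. The groups did not overlap and control mice were nearly equal (2013 ± 59.8, SD, n = 4), but the difference missed the threshold (−0.50 ± 0.15, adjusted p = 0.0621, edgeR). These were the only members whose PGE2-deficient mice were all lower among those tested, where 5.73% of tested genes showed such a separation. With its copy Gm28438 added, mt-Nd3 had 2190 ± 82.1 CPM against 1628 ± 290 (adjusted p = 0.11).

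The other 5 mitochondrial genes of complex I all had a negative estimate and none was called. mt-Nd4l had 978, 1299, 1184 and 1129 CPM in control mice against 828, 1020, 1026 and 627 (log2 fold change −0.39, 95% interval −0.76 to −0.02, adjusted p = 0.242, edgeR). mt-Nd5 was at 679 ± 133 against 509 ± 118 CPM (−0.40), and mt-Nd6 at 398 ± 69.1 against 273 ± 139 CPM (−0.52). mt-Nd6 was uneven among PGE2-deficient mice, at 448, 166, 321 and 157 CPM. mt-Nd4 differed by −0.24 and mt-Nd1 by −0.03, the latter with an interval of −0.35 to 0.28. The 7 genes are cut from long shared transcripts (mt-Nd6 from the opposite strand), so they are not independent readings.

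Outside complex I, mt-Cytb had 2392 ± 353 CPM in control and 1901 ± 375 in PGE2-deficient mice (log2 fold change −0.33, adjusted p = 0.274). mt-Co1 had 3554, 4922, 4055 and 4430 CPM against 3002, 3571, 3735 and 2947. Only PGE2-deficient mice 2 and 3 reached the lowest control mouse, and the difference did not pass the test (−0.36 ± 0.14, adjusted p = 0.151, edgeR). The rows of mt-Co2, mt-Co3 and mt-Atp8 had estimates of 0.04, 0.46 and 0.49 with adjusted p of 0.441 or more (edgeR). mt-Atp6 had too few counts to test. mt-Co2 and mt-Co3 share their sequence with far larger copy rows. mt-Atp8 shares 43 bases with mt-Atp6, which has such a copy row too. No row was found as a copy of mt-Atp8 itself. In the chromosome 1 block a stretch lies between Gm10925 (to 24614651) and Gm28661 (from 24614885). It has the place that mt-Atp8 has between mt-Atp6 and mt-Co2. Whether it holds the mt-Atp8 sequence was not tested, so the mt-Atp8 row may be uncertain in the same way.
With the copies added, mt-Co2 and mt-Co3 had negative estimates, as did mt-Atp6. mt-Co3 had 8188 ± 1205 against 7351 ± 916 CPM (log2 fold change −0.16, 95% interval −0.44 to 0.13), mt-Co2 5122 ± 495 against 4248 ± 650 (−0.27, −0.56 to 0.02) and mt-Atp6 6260 ± 604 against 5178 ± 704 (−0.27, −0.55 to 0.00). mt-Co1 with its 2 copies added was at 6861 ± 944 against 5844 ± 573 CPM (−0.23, −0.51 to 0.04). None of these passed the test. The copy rows on their own gave −0.17 for Gm28437, −0.28 for Gm10925 and −0.31 for Gm28661, with adjusted p from 0.229 to 0.562 (edgeR).

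**Figure D2:**
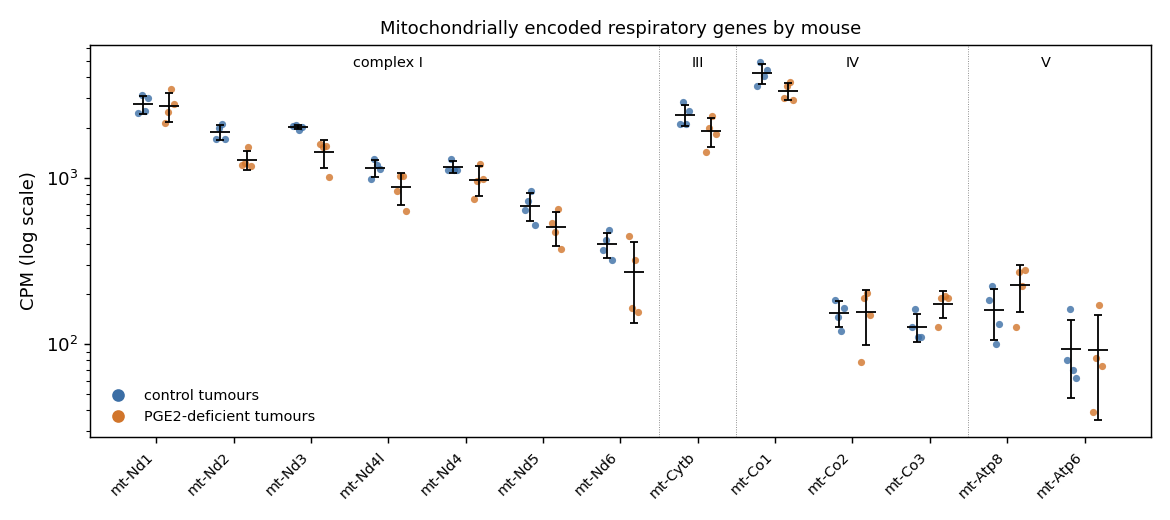
CPM per mouse (log axis) of the 13 mitochondrially encoded genes, ordered by complex; points are mice, horizontal marks the mean and bars the SD (n = 4 per group). The groups do not overlap for mt-Nd2 and mt-Nd3, and mt-Co2, mt-Co3, mt-Atp8 and mt-Atp6 lie lowest in both groups.

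As a share of all counts, the 13 mitochondrial genes took 1.19, 1.49, 1.35 and 1.42% in control mice and 0.944, 1.18, 1.41 and 1.06% in PGE2-deficient mice (1.36% ± 0.128 against 1.15% ± 0.199, SD, n = 4). The groups overlap through PGE2-deficient mouse 3, which was above 2 of the control mice. Single pools spread widely, from 0.824% to 2.07% in the control group and from 0.811% to 1.65% in the other. The 84 nuclear members took 1.91, 1.87, 1.92 and 2.02% against 1.93, 2.12, 2.24 and 1.94%, with pools from 1.7% to 2.35%. Counts of the mitochondrial genes per count of the nuclear members were 0.623, 0.797, 0.702 and 0.702 in control mice and 0.49, 0.558, 0.629 and 0.544 in PGE2-deficient mice, overlapping by PGE2-deficient mouse 3 and control mouse 1 only. With the copy rows added to the mitochondrial genes the ratios were 1.45, 1.84, 1.53 and 1.61 against 1.2, 1.36, 1.44 and 1.28, and did not overlap. These sums are given without a test.

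**Figure D3:**
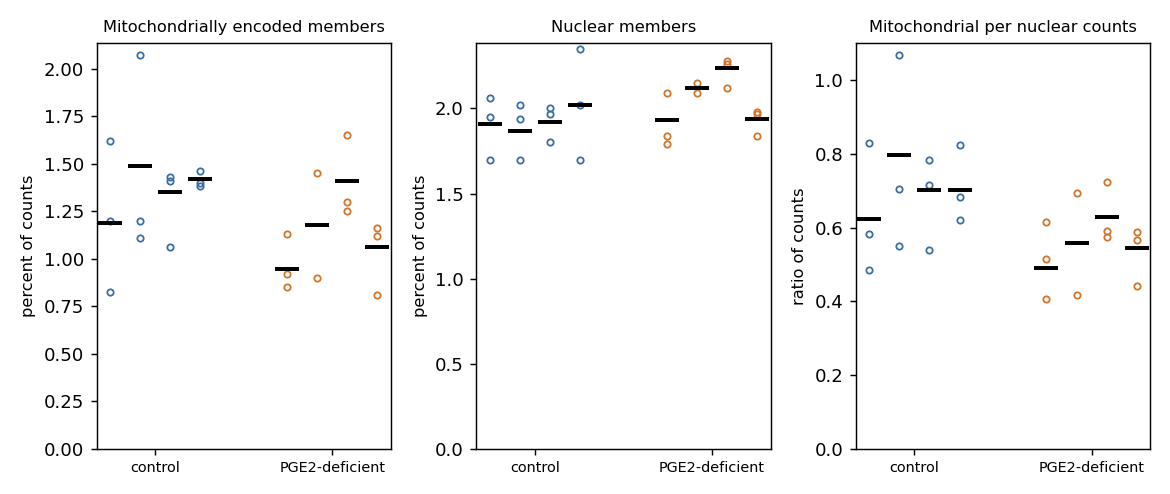
Percent of counts in the 13 mitochondrial and the 84 nuclear members, and the ratio of both, by mouse; open circles are pools and black marks are the mouse sums. PGE2-deficient mice lie at 0.49 to 0.629 in the ratio and control mice at 0.623 to 0.797, with pools of a mouse often further apart than the groups.

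The mitochondrial ribosomal RNA rows mt-Rnr1 and mt-Rnr2 and the transfer RNA rows mt-Tp and mt-Tq did not pass the test, and their groups overlapped. Other transfer RNA rows of the mitochondrion were not analysed singly here. Both mitochondrial ribosomal RNAs together took 3.35% ± 0.839 of the counts in control and 2.37% ± 0.753 in PGE2-deficient mice, where PGE2-deficient mouse 1 held 3.5%. For mt-Rnr1 the log2 fold change was −0.73 (adjusted p = 0.158), and for mt-Rnr2 it was −0.51 (adjusted p = 0.151, edgeR). The transfer RNA row mt-Tp was at −0.49 and mt-Tq at −0.02. The whole mitochondrial chromosome took 5.32% ± 0.892 against 4.1% ± 0.56. The part of these differences, and of the unequal markers of other cells, in the result of mt-Nd2 was not tested beyond leaving out pools. Without the 9 pools holding 10 or more counts of a narrower set of macrophage, pDC and T cell markers, 6 of them control, the mt-Nd2 difference was −0.54 (adjusted p = 0.235, edgeR) and the mitochondrial median −0.33. With the broader list, which also counts Bst2, Apoe and Tcf4, 6 pools from 3 control and 2 PGE2-deficient mice were left and mt-Nd2 was at 0.06 (adjusted p = 0.978).

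Among the nuclear members none was called, and 33 of the 62 tested had a positive and 29 a negative log2 fold change, from −0.58 to 0.63. The groups did not overlap for 2 of them, both higher with PGE2-deficient tumours, where 4.91% of tested genes showed this. Per kb, the highest nuclear members were small subunits, and several long core subunits stood far lower. Pseudogene rows and the rarely detected Atp5s, Cox6b2 and Cox7a1 were also among the lowest. Cox7c, a short membrane subunit of complex IV, reached 1903 CPM per kb, Atp5e, the epsilon subunit of the ATP synthase, 1791, Cox6c 1687 and Cox8a 1493. Ndufs1 and Ndufv1, which carry iron-sulfur clusters and the NADH site of complex I, were at 13.4 and 19.9, Sdhc, a membrane anchor of complex II, at 26.3 and Uqcrc1, a core protein of complex III, at 36.5. Undivided by length, Cox7c stood at 1027.5 CPM over all mice and Ndufs1 at 35.2. Recovery along long and short transcripts was not tested, and subunits of a complex are present in fixed protein ratios that these RNA levels do not show.

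**Figure D4:**
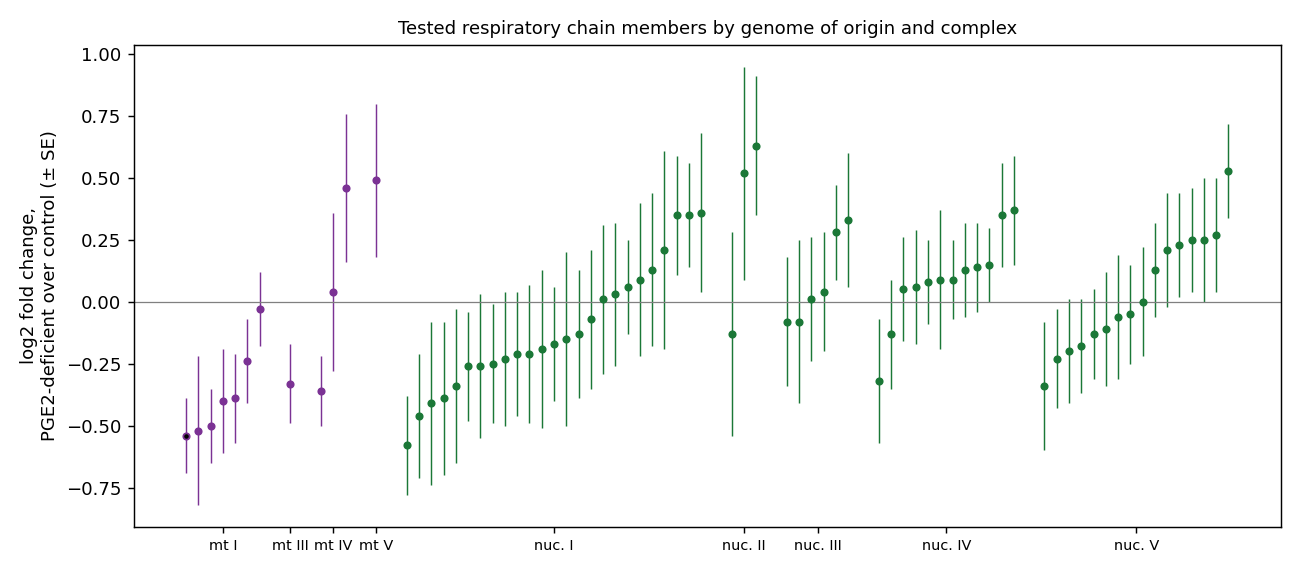
Log2 fold change with SE, PGE2-deficient over control, of the 74 tested members, grouped by genome (mt, mitochondrial; nuc., nuclear) and complex and sorted within each; the point with a black centre, mt-Nd2, is the one with an adjusted p under 0.05. All 7 mitochondrial complex I genes lie below 0, and the nuclear members spread on both sides from −0.58 to 0.63.

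Nuclear complex I had 25 tested members with a median of −0.17, of which 16 were negative. Its lowest was Ndufa6, a small accessory subunit, with 920, 981, 1034 and 721 CPM in control mice and 614, 415, 735 and 644 in PGE2-deficient mice. PGE2-deficient mouse 3 exceeded control mouse 4, and the difference did not pass the test (log2 fold change −0.58 ± 0.20, adjusted p = 0.0972, edgeR). limma-voom over the 23 pools called it (−0.54, adjusted p = 0.0432) and did not call mt-Nd2 (−0.48, adjusted p = 0.0743). That fit takes the mouse as a random effect, but the estimated correlation within a mouse was −0.000588, so pools that the labels call technical replicates counted almost as independent samples. Ndufa7 also had a negative estimate, at 332 ± 58.2 against 244 ± 42.3 CPM (adjusted p = 0.348). The subunits most abundant per kb after Ndufa6 were Ndufa3, at 565 ± 80.5 against 592 ± 36.8 CPM (log2 fold change 0.06), and Ndufa1, at 391 ± 38.6 against 327 ± 84.5 CPM (−0.25). The core subunits Ndufs1 and Ndufv1 were too low to test, with 20 counts in control and 16 in PGE2-deficient mice for Ndufs1 and 10 and 19 for Ndufv1. Ndufs7, a core subunit also below the filter, was at 57.5, 51.6, 30.1 and 31.4 CPM in control and 97.5, 107, 76.5 and 190 in PGE2-deficient mice, and was named after its values were seen. It was tested in 7 alternatives, with estimates from 1.31 to 1.63. It was called in 1 of them, without PGE2-deficient mouse 3 (1.63, adjusted p = 0.049, edgeR). In the others the adjusted p was 0.0815 to 0.158 (edgeR). Its counts were 5, 6, 3 and 4 in control mice and 10, 9, 15 and 23 in PGE2-deficient mice. At a minimum count of 10 it could pass the filter only through the group where it was high. That call is therefore no support for a difference.

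Complex II, the one complex without a mitochondrial gene, took 0.0336, 0.0272, 0.0388 and 0.0335% of the counts in control mice and 0.0404, 0.0445, 0.0538 and 0.0492% in PGE2-deficient mice. The groups did not overlap, on 473 counts in all, where 4.91% of single tested genes were separated in this direction. No other share by complex and genome of origin was separated, and these sums were not tested. Sdhb, the iron-sulfur subunit, was at 127, 189, 130 and 157 CPM against 263, 320, 209 and 173. Only PGE2-deficient mouse 4 lay within the control range, and the difference did not pass the test (log2 fold change 0.63 ± 0.28, adjusted p = 0.227, edgeR). Sdha, the flavoprotein that oxidises succinate, was at 93.7 ± 50.6 against 128 ± 63.8 CPM (0.52 ± 0.43), and the anchor Sdhd at 113 ± 55.6 against 96 ± 45.9 (−0.13 ± 0.41). Sdhc, the other anchor, had too few counts to test, at 57.5, 60.2, 60.2 and 70.6 CPM in control and 107, 71.2, 133 and 107 in PGE2-deficient mice, which were all higher. These levels rest on 27 counts in control and 56 in PGE2-deficient mice.

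Nuclear complex III had 6 tested members with a median of 0.02. Uqcrb, a small subunit near the ubiquinone site, was at 474 ± 27.5 against 573 ± 81.3 CPM (0.28 ± 0.19, adjusted p = 0.485), and with 3 pseudogene copies added at 602 ± 52.6 against 738 ± 73.8, when the groups no longer overlapped (adjusted p = 0.401). Uqcrh, the hinge protein, was at 457 ± 101 against 470 ± 143 and Uqcr11 at 308 ± 88.8 against 292 ± 43.1. Uqcrfs1, the Rieske iron-sulfur protein, was at 132 ± 44.8 against 128 ± 18.7 CPM (−0.08, adjusted p = 0.927). Uqcrq had the highest estimate of the complex at 0.33 (adjusted p = 0.563).

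Nuclear complex IV had 12 tested members, 10 with a positive estimate, a median of 0.09 and none called. Cox7c was at 1024, 1033, 843 and 996 CPM in control and 975, 1198, 1112 and 1040 in PGE2-deficient mice, and its 95% interval on the log2 scale was −0.17 to 0.47. Cox6c was at 992 ± 75.5 against 1053 ± 130 and Cox8a at 798 ± 99.5 against 844 ± 87.3 CPM. The largest estimates were Cox6b1, at 554 ± 101 against 725 ± 211 CPM (0.37 ± 0.22, adjusted p = 0.396), and Cox7a2, the form of subunit 7a made in most tissues, at 492 ± 46.2 against 634 ± 142 (0.35 ± 0.21, adjusted p = 0.397). Cox7a2l was at 358 ± 106 against 287 ± 20.8 CPM (−0.32). Cox7a1, the heart and muscle form, had 0 counts in control and 7 in PGE2-deficient mice. Cox4i1 (514 ± 41.5 against 542 ± 177 CPM), Cox5a, Cox6a1 and Ndufa4 had estimates of 0.05 to 0.13.

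The ATP synthase had 16 tested nuclear members with a median of −0.03, 8 positive and 8 negative. Atp5b, the catalytic beta subunit, was at 380, 525, 472 and 525 CPM in control and 760, 688, 730 and 586 in PGE2-deficient mice. Every PGE2-deficient mouse was above every control mouse, but the difference did not pass the test (log2 fold change 0.53 ± 0.19, 95% interval 0.13 to 0.93, adjusted p = 0.118, edgeR). limma-voom over pools called it (0.56, adjusted p = 0.0317). Its partner in the catalytic head, Atp5a1, the alpha subunit, was at 334, 293, 311 and 353 CPM against 370, 439, 372 and 363, also without overlap (0.25 ± 0.21, adjusted p = 0.579). The 3 genes for the same subunit c of the membrane ring gave 229 ± 25.6 against 268 ± 53.2 CPM for Atp5g1, 294 ± 74.6 against 286 ± 81.1 for Atp5g2 and 302 ± 18.9 against 361 ± 61.7 for Atp5g3. Atp5g2 has an identical copy, Gm10175, with 153 counts beside its 276. Atp5e was at 792 ± 78.3 against 716 ± 114 CPM, Atp5mpl at 599 ± 102 against 525 ± 43.4 and Atp5k at 428 ± 111 against 397 ± 68.9. Atp5d, the delta subunit, was at 222 ± 29.2 against 178 ± 32.6 CPM (−0.34, adjusted p = 0.539).

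The promoters of the nuclear members were searched for 3 short motifs on both strands, from 250 bases before to 50 after the start (RefSeq, GRCm38.p6). A promoter was found for 64 of the 76 protein-coding members. The letters GCGCATGC of nuclear respiratory factor 1 (NRF1), a regulator of respiratory genes, were in 10 (15.6%) of them and in 3.05% of all 27025 promoters. The ETS-type letters CCGGAAG, which the factor GABP recognises, were in 16 (25%) against 9.93%, and the YY1 letters AAGATGGC in 9 (14.1%) against 3.19%. The 27025 promoters were not restricted to genes of the count table. The NRF1 letters were in Ndufa6, the nuclear member with the lowest estimate, and in Sdhb, the one with the highest. Neither difference passed the test, and a link of the letters with direction was not tested. Both promoters are shown in the direction of the gene. Their matches lie on the opposite strand, so the capitals show the reverse complement, GCATGCGC.
Ndufa6, chr15:82354242-82354541, minus strand: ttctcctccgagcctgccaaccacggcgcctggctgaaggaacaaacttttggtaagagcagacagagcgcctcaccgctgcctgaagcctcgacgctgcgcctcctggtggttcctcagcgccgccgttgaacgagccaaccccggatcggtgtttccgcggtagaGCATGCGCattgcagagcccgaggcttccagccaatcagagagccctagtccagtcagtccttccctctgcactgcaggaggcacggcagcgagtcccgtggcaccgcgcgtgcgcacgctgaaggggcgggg
Sdhb, chr4:140961021-140961320, plus strand: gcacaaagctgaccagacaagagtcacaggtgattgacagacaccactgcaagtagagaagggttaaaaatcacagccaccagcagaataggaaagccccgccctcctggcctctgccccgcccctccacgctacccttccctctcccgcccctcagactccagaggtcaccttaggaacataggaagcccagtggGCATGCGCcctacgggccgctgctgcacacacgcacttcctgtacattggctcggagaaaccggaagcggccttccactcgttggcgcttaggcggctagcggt
The other 8 promoters with these letters were those of Atp5g2, Atp5k, Atp5l, Cox6a1, Ndufa8, Ndufa11, Uqcr11 and Uqcrc1. A match is a description of the letters and not evidence of binding.

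Genes that serve the chain were counted from 6 lists beside the 2.7% called higher and 2.26% called lower over all tested genes. Of 46 rows of assembly factors 7 were tested and 1 was called higher, Coa5, a factor for building complex IV, at 138, 138, 141 and 235 CPM in control and 214, 629, 230 and 487 in PGE2-deficient mice. The groups overlapped, since control mouse 4 lay above PGE2-deficient mice 1 and 3 (log2 fold change 1.20 ± 0.35, adjusted p = 0.0497, edgeR). It was called in 12 of 23 alternatives and not without PGE2-deficient mouse 2 (0.90, adjusted p = 0.145) or 4 (1.04, adjusted p = 0.143) or control mouse 1, 2 or 3. Pet100, another complex IV factor, was at 225 ± 38.9 against 149 ± 14.3 CPM (−0.58, adjusted p = 0.237).
Of 81 rows of mitochondrial ribosomal proteins 15 were tested and 0 called, with a median of 0.14 and 1 at an unadjusted p under 0.05 (389 of 2076 over all genes), Mrpl52, at 394 ± 33.4 against 233 ± 64.9 CPM (−0.71, adjusted p = 0.105, edgeR). Of 20 rows of the Krebs cycle and pyruvate entry 5 were tested and 0 called, with 1 of the 5 at an unadjusted p under 0.05, the pyruvate carrier gene Mpc1, at 370 ± 98.6 against 238 ± 65.6 CPM (−0.67, adjusted p = 0.169). limma-voom over pools called Mrpl52 and Mpc1 lower (adjusted p = 0.0432 and 0.0487). Of 16 rows of electron carriers, transporters and exchange proteins 11 were tested, with 0 called and 0 at an unadjusted p under 0.05. Cytochrome c, Cycs, was at 766 ± 229 against 926 ± 192 CPM, the uncoupling protein Ucp2 at 557 ± 60 against 573 ± 151 and the ATP synthase inhibitor Atpif1 at 640 ± 119 against 697 ± 84.5. Of the 25 rows for expression of the mitochondrial genome only Slirp, which binds mitochondrial messenger RNA, could be tested, at 152 ± 52.1 against 123 ± 31.9 CPM (−0.28, adjusted p = 0.716). Of the 9 rows of biogenesis regulators Hif1a (−0.58, adjusted p = 0.394) and Yy1 (−0.35) could be tested.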

How the data were processed

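Deposited counts were unnormalized whole numbers, by gene, for 23 pools of 10 cDC1 each. The submitters' processing notes name STAR 2.5.4b and the build GRCm38 (mm10). Not given in the sources used here are the counter, the annotation, strand use and whether reads or molecules were counted.

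Pools of a mouse were summed (4 mice per group). Genes were filtered with filterByExpr (minimum count 10), leaving 2076 genes with 80.6% of the counts, and tested over all of them with edgeR 4.0.16 (quasi-likelihood, TMM, two-sided, Benjamini-Hochberg, threshold 0.05). SEs were derived from the F statistic. Copies were rows matching a member at 95% identity or more over at least 80% of the copy (BLAST 2.17.0, GENCODE M21). Nothing says the mice shared a number for a reason: deviations of same-numbered mice correlated at −0.0893 to 0.1, so mice were not paired. Alternatives used DESeq2 1.42.0 and limma 3.58.1 (voom over pools, mouse as random effect).

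Text names all mitochondrial genes, in each complex the 3 most abundant nuclear members per kb and the 2 with the smallest p, and a panel of core subunits and paralogs; the members, lists and panel were chosen with earlier results of these data known. List genes were named for a call, a p under 0.05 or a known role. Labels also mention Clec9A-Cre Ptger2 KO Ptger4 fl/fl hosts, not analysed here.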

Additional observations from a re-analysis of the deposited data

Results flagged for a closer look

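In 106 checks of 4 mice each, 1 mouse stood apart from the other 3 of its group 9 times, by a gap above Dixon's 95% limit; chance flags about 1 in 20 groups. Among mitochondrial genes these were mt-Nd2 at 1525.7 CPM in PGE2-deficient mouse 3 (the others 1172.1 to 1221.8), mt-Nd3 at 1015.3 CPM in PGE2-deficient mouse 4 (the others 1530.3 to 1598.3), mt-Nd4 at 1299.2 CPM in control mouse 2 (the others 1105.5 to 1115.8) and mt-Co3 at 127 CPM in PGE2-deficient mouse 1 (the others 190 to 194). Among nuclear members they were Atp5a1 at 439 CPM in PGE2-deficient mouse 2 (the others 363 to 372), Atp5g1 at 191 CPM in control mouse 3 (the others 241 to 243) and Uqcrfs1 at 156 CPM in PGE2-deficient mouse 1 (the others 116 to 122). Among copy rows they were Gm13340 at 809 CPM in control mouse 2 (the others 414 to 447) and Gm28438 at 182 CPM in PGE2-deficient mouse 4 (the others 214 to 219).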

How the results depend on the processing

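The number of members called lower, 1 in the test reported, was 2 with upper quartile factors and with robust dispersion (mt-Nd2 and mt-Nd3 in both). It was 0 with library totals alone, without the mt- and ribosomal RNA rows (which removes mt-Nd2), with no count filter, with DESeq2, with technical replicates 2 and 3 alone, and without the pools holding markers of other cells by either list. Lower calls over all 2076 genes were 67 with upper quartile factors, 63 with robust dispersion, 24 with library totals and 37 with DESeq2. They were 60 of 2019 without the mt- and ribosomal RNA rows and 84 of 13311 with no count filter. Technical replicates 2 and 3 alone gave 19 of 1459. Without the marker pools only 1 of 882 (broader list) and 6 of 1131 (narrower) were called lower, so 0 members there has little meaning. Leaving out 1 mouse at a time gave 0 to 1 called lower and 0 to 1 called higher. Over all genes such fits called 23 to 45 lower and 31 to 67 higher. The 1 member called higher there was Ndufs7, which could pass the filter only through the group where it was high. With limma-voom 1 was called higher, Atp5b, and 1 lower, Ndufa6 in place of mt-Nd2. Over all genes limma-voom called 62 higher and 79 lower. The nuclear median of 0.01 moved to −0.05 with upper quartile factors, 0.09 with library totals, 0.15 and 0.12 without the marker pools (broader and narrower list), and −0.07 to 0.03 when 1 mouse was left out. Upper quartile factors put the median of all genes at −0.0584 and library totals at 0.0935. The mitochondrial median of −0.34 lay between −0.45 and −0.22 when 1 mouse was left out, and moved to −0.16 without the broader marker pools, where mt-Nd2 was reversed at 0.06. The mitochondrial share difference of −0.215 percentage points was −0.382 with copies added, and the nuclear one of 0.124 was −0.038 without the broader marker pools. The cause of these shifts was not tested. With the mouse number as a replicate block, 0 members were called higher and 1 lower, again mt-Nd2 (−0.55, adjusted p = 0.0411), and over all genes 45 higher and 28 lower against 56 and 47. The narrower marker list and the fit with copy rows added were chosen after seeing the data.

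Depth limits the test: 23 of 97 members had too few counts, all 7 processed pseudogenes among them, and whether amplified reads are independent molecules is not known.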
